A study of Mus musculus with 10 samples.

Results

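The histone genes of the mouse, replication-dependent and variant, were followed in medulloblastoma and in adjacent cerebellum. A gene was a member when its current symbol, or an older symbol that the RefSeq gene table lists for it, fitted the histone naming patterns (Hist1h to Hist4h, H1f, H2af, H2ax, H2az, H3f3, or a clustered name such as H2ac or H4c followed by a digit). This gave 92 genes, 45 through the current symbol and 47 through an older one. Of these, 70 are replication-dependent (6 for linker histone H1, 20 for H2A, 19 for H2B, 12 for H3 and 13 for H4) and 22 are variant genes, and 8 of the 92 are pseudogenes in that table. A probe set that names no other gene was found for 24 members, out of 18194 genes so covered in the whole series. Another 46 members, 45 of them replication-dependent, were reached only by probe sets that name several genes, and the remaining 22, the linker histone gene H1f0 among them, are not analysed here.

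All samples came from mice that carry CAGGS-CreER and R26-SmoM2, the offspring of CAGGS-CreER fathers and R26-SmoM2 mothers. SmoM2 is a mutant Smoothened that signals without its ligand and so turns on the Hedgehog pathway. CreER recombines DNA once tamoxifen is given. The mice received 1 mg of tamoxifen per 40 g of body weight at postnatal day 10, and their age at collection is not given in the sources used here. The medulloblastoma group held 3 tumours and the cerebellum group 2 samples of neighbouring tissue that the labels call wild type, each hybridised to 2 Affymetrix chips, 430A and 430B. The cerebellum samples therefore share the alleles and the tamoxifen with the tumours, and CAGGS is a promoter that is active in most cell types. The labels call the samples biological replicates without saying which came from the same mouse.

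Histones are the proteins around which DNA is wound into nucleosomes, with H2A, H2B, H3 and H4 in the core and H1 on the linker. Replication-dependent histone genes lie in clusters and are transcribed while DNA is copied. Their transcripts mostly end in a stem-loop in place of a poly(A) tail. Variant histone genes lie alone, have polyadenylated transcripts, and supply the H2A, H3 and H1 forms that are exchanged into chromatin outside replication. In the cerebellum, granule neuron precursors divide after birth under Hedgehog signalling and then leave the cell cycle, and Hedgehog-driven medulloblastoma arises from these precursors. The labels name the standard Affymetrix labelling procedure, and how fully it copies transcripts without a tail is not given in the sources used here.

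On 430A the correlation of log2 values over all probe sets was 0.946 to 0.977 between tumours and 0.977 between the cerebellum samples, and on 430B it was 0.906 to 0.965 and 0.960. The 2 cerebellum samples were not alike in genes of dividing cells. The summed 430A intensity of 11 replication and mitosis genes was 808 in cerebellum 1 and 465 in cerebellum 2, against 6054, 5425 and 5274 in the tumours. The 8 markers of granule neuron precursors summed to 410 and 230 in the cerebellum samples and to between 3233 and 4421 in the tumours, and all 8 were higher. All 8 markers of mature granule neurons, all 5 tested of Purkinje cells, all 5 tested of oligodendrocytes and 5 of 7 of astrocytes and Bergmann glia were lower in the tumours. Of 7 markers of microglia and macrophages 5 were higher, with a sum of 394 and 329 in cerebellum and between 926 and 1165 in the tumours, and no measured gene of the 10 marker lists was at or below an intensity of 1 in every array. Of the other markers tested, none of 4 of lymphocytes, none of 2 of erythroid cells and 1 of 6 of endothelium and pericytes, which was lower, passed, as did 1 higher and 1 lower of 4 of choroid plexus. The part of these cell types in the histone values was not tested, and in bulk samples fewer cells of a type and less RNA per cell cannot be told apart.

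Among histone genes read by a probe set of their own, the variants that passed were all higher in the tumours and the replication-dependent genes that passed were all lower. Of 10 tested variant genes, each read by 1 probe set of its own, 6 were higher in medulloblastoma, none was lower and 4 did not pass, with a median log2 fold change of 0.85. Of 7 tested replication-dependent genes none was higher, 2 were lower and 5 did not pass, with a median of -0.33. Over all 14703 genes tested the median was -0.05, and 10.7% were called higher, 16% lower and 26.8% either way. Fold changes are tumour minus cerebellum on the scale of log2(intensity + 16), and a call is an adjusted p below 0.05 in limma over all tested probe sets of a chip. The call of H3f3a ended when 430B was scaled on the probe sets that both chips hold, and that of H2bc22 without tumour 1. Without cerebellum 1 the change of H2bc22 was -0.47 in place of -0.83, and without cerebellum 2 that of H3f3a was 0.81 in place of 0.92. The sets that name Macroh2a2 disagreed, and so did those that name H3f3a, alone or with other genes, which ranged from -0.34 to 0.92. The difference between the 2 kinds of gene was not itself tested. Most replication-dependent genes are reached only by sets that name several genes. Those sets, described below, went both ways, from -1.57 for 3 H2B genes to 4.29 for 10 H2A genes. A further 7 members with a probe set of their own were too dim to be tested, in the lowest 25% of their chip by mean.

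Among all probe sets that name a histone gene, alone or with others, 62 were on the chips and 47 were tested. On 430A, 12 of 37 were higher, where 13.1% of all tested probe sets were higher, and 7 were lower, where 19.0% were lower and 32.2% passed either way. Groups did not overlap in 28 of these 37, with 16 higher and 12 lower, where 23.8% of all tested probe sets were higher without overlap and 31.8% lower. The 18 variant probe sets of 430A hold 9 of the rises and none of the falls. The 19 replication-dependent ones hold 3 rises, all of sets that name 10 genes or more, and all 7 falls. Some of these sets name the same gene, H2az1 among the rises and H2ac19 and several H2B genes among the falls. The counts of sets are therefore not counts of separate genes. On 430B, 1 of 10 was higher, where 7.85% of all tested probe sets were higher, and none was lower, where 9.77% were lower and 17.6% passed either way. On that chip 1 set was higher and 3 were lower without overlap, where 20.8% and 24.7% of all tested sets were. The 430B counts are near the background of their chip.

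**Figure D1:**
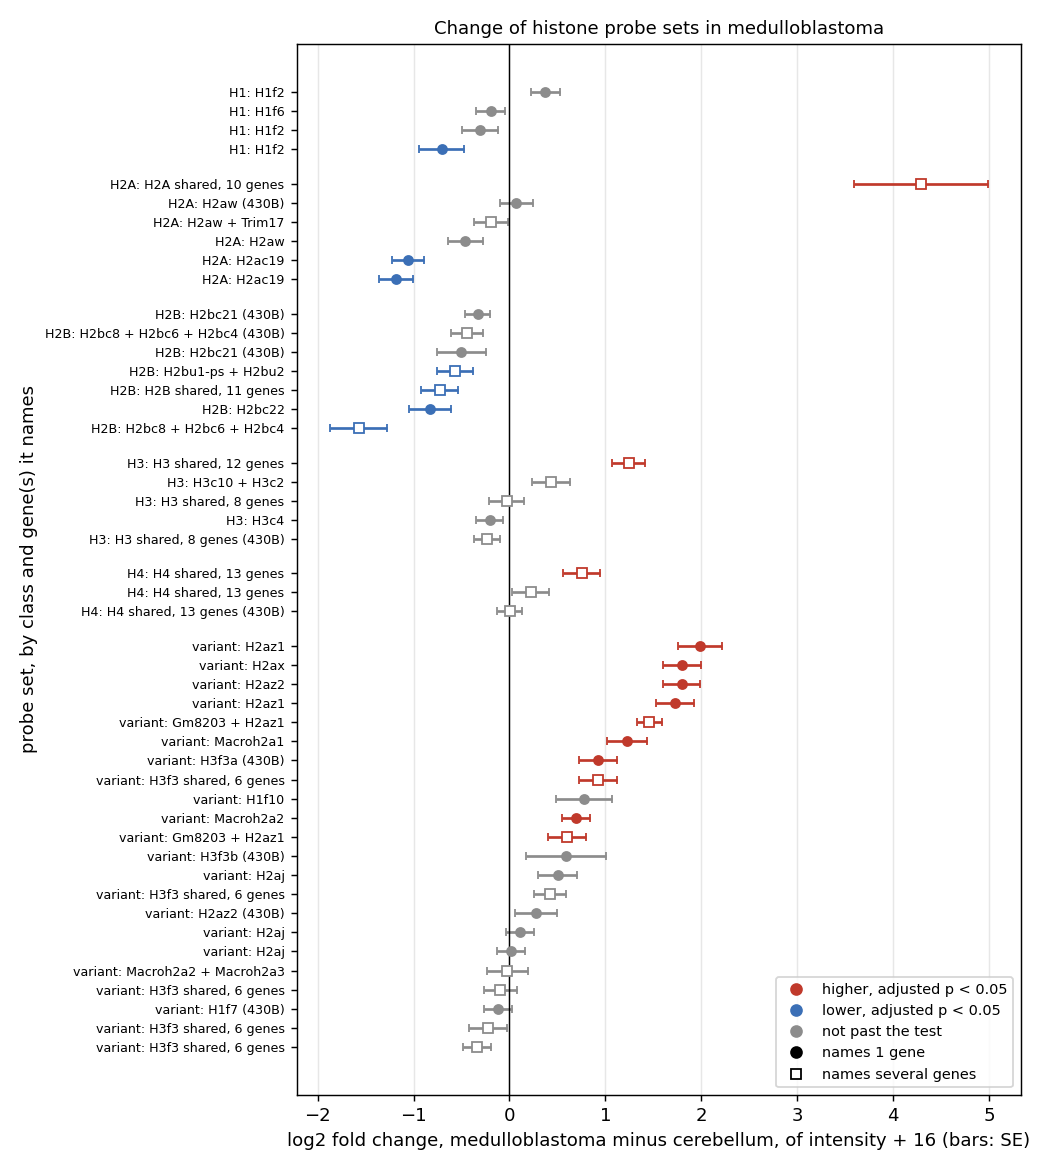
Log2 fold change (medulloblastoma minus cerebellum, of intensity + 16, bars give the SE) of the 47 tested histone probe sets, by class, with filled circles for sets that name 1 gene and open squares for sets that name several. Most variant sets lie right of 0, from H3f3a at 0.92 to H2az1 at 1.99 among the larger rises, the H2B sets all lie left of 0, and the set for 10 H2A genes stands far to the right at 4.29.

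H2A.Z, the variant that replaces H2A in nucleosomes beside transcription start sites, was higher in every tumour on 430A through each of its 2 genes. The H2az1 set 1438091_a_at read 465 and 428 in the cerebellum samples and 1664, 1178 and 1782 in the tumours. The groups do not overlap, and the mean rose from 447 ± 26.1 (SD, n = 2) to 1541 ± 321 (SD, n = 3). This is 1.73 ± 0.20 (SE) on the log2 scale, with an adjusted p of 6.02e-05. A second H2az1 set, 1438092_x_at, gave 1.99 ± 0.23. Of 2 further sets that name H2az1 together with Gm8203, 1 rose by 1.46 ± 0.13. The other rose by 0.60 ± 0.20 with an adjusted p of 0.038, and that call ended without either cerebellum sample, without tumour 1 or without tumour 3, where the adjusted p reached up to 0.292.

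H2az2, the second H2A.Z gene, read 199 and 176 in cerebellum and 632, 760 and 680 in the tumours on 430A. Every tumour was above every cerebellum sample by more than the spread within a group, and the log2 fold change was 1.80 ± 0.19 with an adjusted p of 3.3e-05. Its 430B set read 73.0 and 96.7 in cerebellum and 121, 118 and 80.8 in the tumours. These groups overlap, and its change of 0.28 ± 0.22 did not pass (adjusted p = 0.469). The 2 sets of H2az2 thus had the same sign and different sizes.

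The 250 bases before the H2az1 start are shown because they hold 2 motifs at once. Here and below, promoter sequence is from RefSeq on the GRCm38.p6 build, written 5′ to 3′ along the gene, with the searched motifs in capitals. The window is chr3:137864237-137864486 on the plus strand. Its capitals mark the CCAAT box (CCAAT, or ATTGG read on the other strand) in 2 places and the second E2F-type motif searched (TTGGCGC, here on the other strand as GCGCCAA, which overlaps the first CCAAT).
H2az1: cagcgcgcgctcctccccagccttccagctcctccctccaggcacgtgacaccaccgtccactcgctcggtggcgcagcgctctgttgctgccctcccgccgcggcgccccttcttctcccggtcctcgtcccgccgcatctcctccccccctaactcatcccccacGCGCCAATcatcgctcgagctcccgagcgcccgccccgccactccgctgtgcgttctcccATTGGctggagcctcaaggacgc
The letters TTGGCGC were found on either strand in 3 variant windows of 16, those of H2az1, Macroh2a2 and H1f10, and in 2.45% of all 32851 RefSeq promoter windows of 300 bases. The letters CCAAT were found in 10 of the 16 variant windows and in 37.4% of all windows. A match says that the letters are there and not that a factor binds.

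H2ax encodes H2AX, the H2A form that is phosphorylated around double-strand breaks. Its set read 54.3 and 48.8 in cerebellum and 196, 256 and 208 in the tumours. The groups lie far apart, with means of 51.5 ± 3.91 (SD, n = 2) and 220 ± 31.4 (SD, n = 3). The change was 1.80 ± 0.20 on the log2 scale with an adjusted p of 3.97e-05. Without 1 array at a time the change stayed between 1.69 and 1.87. H2ax has transcripts that can end with or without a poly(A) tail, and it is counted among the variants here.

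MacroH2A proteins carry a large macrodomain behind the histone fold and are known from silenced chromatin such as the inactive X chromosome. Macroh2a1 read 111 and 137 in cerebellum and 308, 359 and 270 in the tumours, all of which lie above both cerebellum values. Its log2 fold change was 1.23 ± 0.21 with an adjusted p of 9.38e-04. Macroh2a2 read 20.8 and 19.3 in cerebellum and 39.6, 43.5 and 43.9 in the tumours, a rise of 0.69 ± 0.14 with an adjusted p of 0.00299. A set that names Macroh2a2 together with the pseudogene Macroh2a3 read 206 and 172 in cerebellum and between 161 and 227 in the tumours. That set did not pass, at -0.02 ± 0.22, so the sets that name Macroh2a2 disagree. The 2 sets of Macroh2a3 alone were too dim to be tested.

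H3f3a and H3f3b encode the same protein, H3.3, the H3 form that is put into chromatin outside replication. The H3f3a set of 430B read 59.4 and 48.0 in cerebellum and 112, 101 and 137 in the tumours, without overlap. It rose by 0.92 ± 0.19 (adjusted p = 0.00802), and the call ended without either cerebellum sample (adjusted p = 0.0522 and 0.143) and when 430B was scaled on the probe sets that both chips hold. The H3f3b set of 430B read 35.96 and 25.32 in cerebellum and 88.6, 82.5 and 16.8 in the tumours. Tumours 1 and 2 are high and tumour 3 is below both cerebellum samples, and the change of 0.59 ± 0.42 did not pass (adjusted p = 0.41). Without tumour 3 it was 1.13 with an adjusted p of 4.71e-05.

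On 430A, 5 sets name H3f3a, H3f3b, H3f3c and 3 further gene models together, so they cannot be given to 1 gene. The set 1423263_at read 552 and 499 in cerebellum and 1143, 803 and 1110 in the tumours and rose by 0.92 ± 0.20 (adjusted p = 0.00407). The other 4 did not pass and lay between -0.34 and 0.42. Of these, 3 had negative values, and all 3 turned positive after quantile normalization, under which the fourth passed at 0.97 (adjusted p = 0.00163).

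The remaining variant genes did not pass the test. H1f10, a linker histone that is made outside replication, read 105 and 127 in cerebellum and 172, 337 and 157 in the tumours. All tumours are above both cerebellum samples with tumour 2 far above the rest, and the change was 0.78 ± 0.29 (adjusted p = 0.0656). It passed with equal array medians, without tumour 3 (adjusted p = 0.0432) and after quantile normalization (0.0429). H2aj, the gene of H2A.J, read 124 and 91.4 in cerebellum and 142, 175 and 158 in the tumours, a change of 0.50 ± 0.20 (adjusted p = 0.0858) that passed after quantile normalization (0.0379). Its other 2 sets gave 0.11 and 0.02. The testis linker histone gene H1f7 gave -0.12 ± 0.15. The oocyte linker histone gene H1f8 and H2al2a were too dim to be tested.

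**Figure D2:**
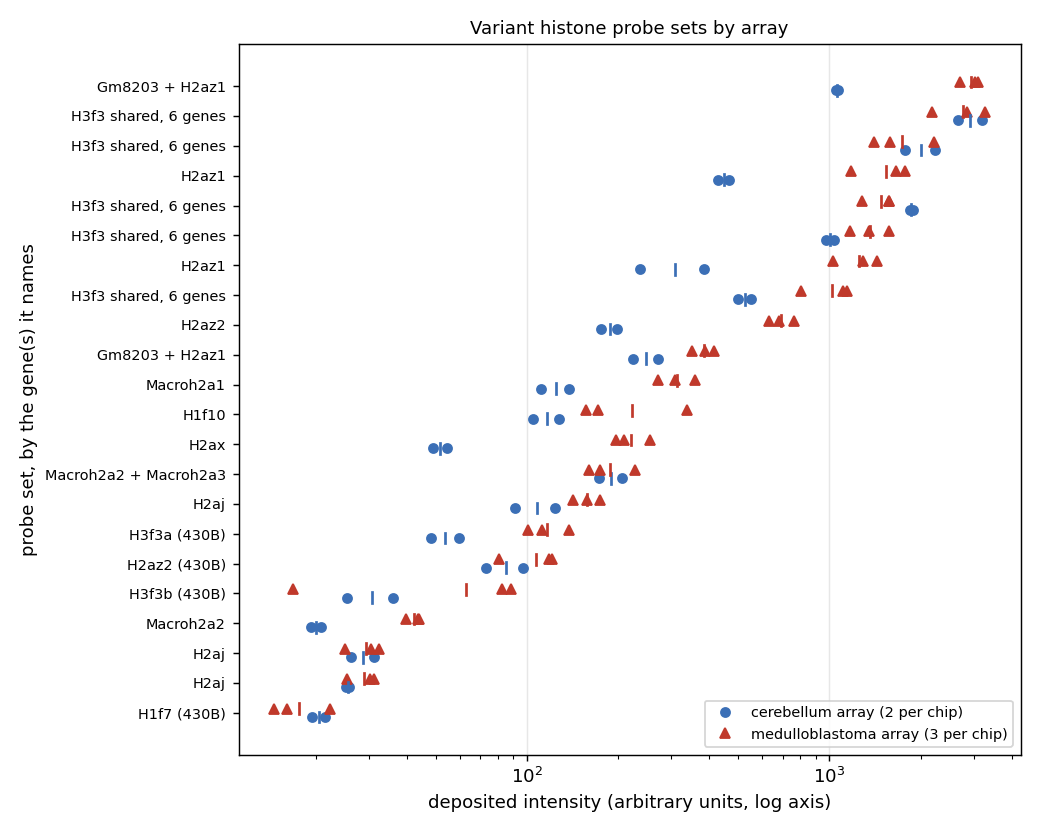
Deposited intensity (arbitrary units, log axis) of each tested variant histone probe set in every array, blue circles for the 2 cerebellum samples and red triangles for the 3 tumours, short bars for the group means. H2az1, H2az2 on 430A, H2ax and Macroh2a1 show tumours to the right of both cerebellum samples with a clear gap, whereas H3f3b has tumour 3 at 16.8, left of both.

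Changes within pairs of variants were compared on the same arrays, since the sensitivity of a bright probe set largely cancels in the change of its difference. For dim sets such as that of Macroh2a2 it does not, because of the 16 added before the logarithm. In 5 pairs an exact two-sided permutation test over the 10 ways to split the arrays can give no p below 0.2. The log2 change of H2ax was 0.57 above that of Macroh2a1 (exact p = 0.2, adjusted over the pairs 0.5), with the tumours between -0.61 and -0.35 and the cerebellum samples between -1.24 and -0.85. With a pseudocount of 64 this difference was 0.30. The change of Macroh2a1 was 0.53 above that of Macroh2a2, also with groups that do not overlap (exact p = 0.2, adjusted 0.5), but with a pseudocount of 1 it was 0.28 above (exact p = 0.4). That of H2az1 was 0.50 above that of Macroh2a1 with overlapping groups (exact p = 0.4, adjusted 0.667). H2az1 and H2az2 differed by -0.07 in their change, with tumours between 0.62 and 1.38 around the cerebellum values of 1.17 and 1.21 (exact p = 1). H3f3a and H3f3b differed by 0.33, with tumours between 0.24 and 2.22 and cerebellum between 0.54 and 0.63 (exact p = 1). None of the 5 differences passed, and a sample of this size cannot show that any pair moved alike.

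Neither tested linker histone H1 gene passed by the set that stands for it, and the sets of H1f2 differed in sign. H1f2, the older Hist1h1c, encodes the linker histone H1.2 and has 3 sets on 430A. The first, 1416101_a_at, which stands for the gene, gave -0.30 ± 0.19 (adjusted p = 0.259). The second read 102 and 114 in cerebellum and 55.3, 43.3 and 87.7 in the tumours, lower by the test at -0.71 ± 0.23 (adjusted p = 0.0384). The third read 27.6 and 18.4 in cerebellum and 33.04, 34.06 and 35.70 in the tumours, a change of 0.38 ± 0.15 that did not pass (adjusted p = 0.0891). The fall on the second set ended without either cerebellum sample, without tumour 1 or without tumour 2, with an adjusted p up to 0.21, and also under equal array medians, with no filter on dim sets and after quantile normalization (adjusted p = 0.0577). H1f6, the testis form of H1, gave -0.20 ± 0.16, and H1f4 was too dim to be tested.

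The H1f2 promoter is shown because the H1 genes share a box of their own. It lies at chr13:23738557-23738806 on the plus strand, and the capitals mark first the H1 box (AAACACA) and then the CCAAT box.
H1f2: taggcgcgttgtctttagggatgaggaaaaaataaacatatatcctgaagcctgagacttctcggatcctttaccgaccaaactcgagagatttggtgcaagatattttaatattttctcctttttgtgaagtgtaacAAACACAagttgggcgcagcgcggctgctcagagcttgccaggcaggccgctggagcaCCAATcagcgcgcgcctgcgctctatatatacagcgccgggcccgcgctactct
The letters AAACACA were found on either strand in 5 of 6 H1 windows, in 2 of 18 H2A and 2 of 17 H2B windows, in none of the 10 H3 and 12 H4 windows, in 1 of 16 variant windows and in 7.18% of all windows. The CCAAT box was found in all 6 H1, 18 H2A, 17 H2B and 10 H3 windows and in 3 of 12 H4 windows. The windows were matched for 78 of the 92 members, as 79 windows, and H2A and H2B windows of a divergent pair share bases. H2ax has no entry in the promoter table.

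H2A went in opposite directions by probe set. H2ac19, the older Hist2h2aa2, is an H2A gene of the chromosome 3 cluster. Its set 1418366_at read 92.0 and 104 in cerebellum and 28.9, 42.9 and 31.4 in the tumours, all of them well below both cerebellum values. The log2 fold change was -1.19 ± 0.18 with an adjusted p of 3.44e-04. Its second set gave -1.06 ± 0.17. H2aw, the older Hist3h2a of chromosome 11, read 117 and 109 in cerebellum and 68.1, 80.6 and 85.3 in the tumours on 430A. That change of -0.46 ± 0.18 did not pass (adjusted p = 0.0769) except without tumour 2 (0.0427). Its 430B set gave 0.07 ± 0.17, which turned negative, at -0.12, when 430B was scaled on the shared probe sets. A set that names H2aw with Trim17 gave -0.19 ± 0.18.

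The set 1438009_at names 10 H2A genes of the chromosome 13 cluster, H2ac4, H2ac6, H2ac7, H2ac8, H2ac11, H2ac12, H2ac13, H2ac22, H2ac23 and H2ac24. It read 723 in cerebellum 1 and 51.2 in cerebellum 2, and 4859, 3853 and 4394 in the tumours. The tumours are close together and far above both cerebellum samples, which differ from each other by 14.1 times. The log2 fold change was 4.29 ± 0.70 with an adjusted p of 6.43e-04, and it was 6.02 without cerebellum 1 and 2.56 without cerebellum 2, with adjusted p of 1.72e-07 and 6.83e-06. Some genes of dividing cells were also higher in cerebellum 1 than in cerebellum 2, as with Top2a at 65.4 and 4.65, Cdk1 at 49.9 and 10.8 and Mki67 at 53.8 and 11.2. Others were not, as with Mcm5 at 27.5 and 27.8 and Mcm3 at 26.3 and 29.2. Which of the 10 genes gave the signal cannot be read from 1 set, and the part of dividing cells in it was not tested.

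H2B was lower in every set that passed. H2bc22, the older Hist1h2bp, read 71.8 and 37.4 in cerebellum and 20.1, 18.2 and 30.0 in the tumours. The cerebellum samples differ by 1.92 times and both lie above the tumours, and the log2 fold change was -0.83 ± 0.22 (adjusted p = 0.0126). Without cerebellum 1 it was -0.47 with an adjusted p of 0.177, and the call also ended without tumour 1. H2bc21, the older Hist2h2be, gave -0.33 ± 0.13 and -0.50 ± 0.26 on its 2 sets of 430B, and neither passed, except the latter when 430B was scaled on the shared probe sets (adjusted p = 0.0462). H2bc18 was too dim to be tested.

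Among the H2B sets that name several genes, 1418072_at names H2bc4, H2bc6 and H2bc8. It read 240.0 and 217 in cerebellum and 72.0, 36.3 and 105 in the tumours. No tumour reaches the lower cerebellum value, and the log2 fold change was -1.57 ± 0.30 with an adjusted p of 0.00189. A 430B set for the same 3 genes gave -0.44 ± 0.17 and did not pass (adjusted p = 0.111), though it passed in the fit without tumour 3. A set that names 11 H2B genes, these 3 and H2bc22 included, read 452 and 368 in cerebellum and 234, 245 and 241 in the tumours. It fell by 0.73 ± 0.20 on the log2 scale (adjusted p = 0.0146), and the call ended without cerebellum 1 (-0.58, adjusted p = 0.174) and after quantile normalization (-0.49, adjusted p = 0.0825). The set for H2bu2 and the pseudogene H2bu1-ps fell by 0.56 ± 0.19 (adjusted p = 0.0399), and that call ended under quantile normalization, under equal array medians and without 1 of either cerebellum sample, tumour 1 or tumour 3, with an adjusted p up to 0.306.

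H2A and H2B genes of the chromosome 13 cluster lie head to head, with 1 stretch of sequence between their starts. Only members with a promoter window could be paired, and H2bc4, named by the H2B sets of 3 and 11 genes, has none. Of the 10 H2A genes named by the set that rose, 8 were found to have an H2B gene on the opposite strand. Its start lies 168 to 268 bases away. Of these 8 H2B genes, 7 are named by the set of 11 H2B genes that fell, and 1 of these, H2bc8, also by the set of 3. The stretch between H2ac8 and H2bc8 is shown because its 2 ends start genes that are named by sets of opposite direction. It lies at chr13:23571221-23571399 and is written on the plus strand, with capitals that mark, from left to right, 2 CCAAT boxes (the first read on the other strand), the octamer core (TTTGCAT) and the TATA box (TATAAA).
H2ac8-H2bc8: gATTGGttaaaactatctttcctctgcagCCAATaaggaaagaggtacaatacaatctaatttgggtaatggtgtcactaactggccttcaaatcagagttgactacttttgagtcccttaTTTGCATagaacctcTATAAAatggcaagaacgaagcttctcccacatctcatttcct
The letters TTTGCAT were found on either strand in 7 of 18 H2A windows, 7 of 17 H2B windows, 1 of 12 H4 windows, 2 of 16 variant windows and none of the H1 and H3 windows, and in 4.63% of all windows. TATAAA was found in 11 of 18 H2A and 8 of 17 H2B windows and in 13.6% of all windows, but in 1 of 16 variant windows. The sets of opposite direction name several genes each, so the data do not show that H2ac8 and H2bc8 themselves did so.

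H3 and H4 are nearly all read by sets that name many genes. The set 1460314_s_at names all 12 replication-dependent H3 genes and read 25.3 and 17.6 in cerebellum and 80.3, 62.7 and 74.5 in the tumours. Every tumour is far above both cerebellum samples, and the log2 fold change was 1.24 ± 0.17 with an adjusted p of 1.96e-04. A set for H3c2 and H3c10 gave 0.43 ± 0.20 and did not pass except without tumour 2 (adjusted p = 0.0368). The sets that name 8 of the H3 genes gave -0.03 ± 0.18 on 430A and -0.24 ± 0.14 on 430B and did not pass. H3c4, the older Hist1h3d and the only H3 gene tested on a set of its own, read 17.5 and 22.3 in cerebellum and 16.1, 14.7 and 14.35 in the tumours, a change of -0.21 ± 0.14 that did not pass (adjusted p = 0.301). H3c7 and H3c11 were too dim to be tested.

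The 13 H4 genes encode 1 protein, and none has a set of its own. The set 1422948_s_at, which names all 13, read 89.3 and 65.4 in cerebellum and 139, 136 and 144 in the tumours. The tumours are alike and above both cerebellum samples, with a log2 fold change of 0.75 ± 0.19 and an adjusted p of 0.0115. Without cerebellum 2 it was 0.57 with an adjusted p of 0.193. The other 2 tested sets for the 13 genes gave 0.22 ± 0.19 on 430A and 0.00 ± 0.13 on 430B and did not pass, and the latter lay between -0.14 and 0.04 over the scalings tried.

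The H4c1 promoter is shown because it repeats a motif known from the binding sites of E2F, the factors that turn on genes for DNA replication. It lies at chr13:23761250-23761499 and is written along the gene, on the minus strand. Its capitals mark the E2F-type motif TTCCCGC in 4 places and the CCAAT box read on the other strand (ATTGG).
H4c1: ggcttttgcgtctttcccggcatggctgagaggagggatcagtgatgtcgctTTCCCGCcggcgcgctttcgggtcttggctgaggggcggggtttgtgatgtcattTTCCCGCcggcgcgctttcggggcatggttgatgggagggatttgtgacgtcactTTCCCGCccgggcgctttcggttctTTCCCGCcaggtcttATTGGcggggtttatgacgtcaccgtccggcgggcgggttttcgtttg
The letters TTCCCGC were found on either strand in 5 of 12 H4 windows, in 1 of 17 H2B windows, in none of the H1, H2A, H3 and variant windows, and in 4.6% of all windows. Among the H4 windows only that of H4c1 repeats them, as those of H4c4, H4c6, H4c11 and H4c12 hold 1 copy each.

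**Figure D3:**
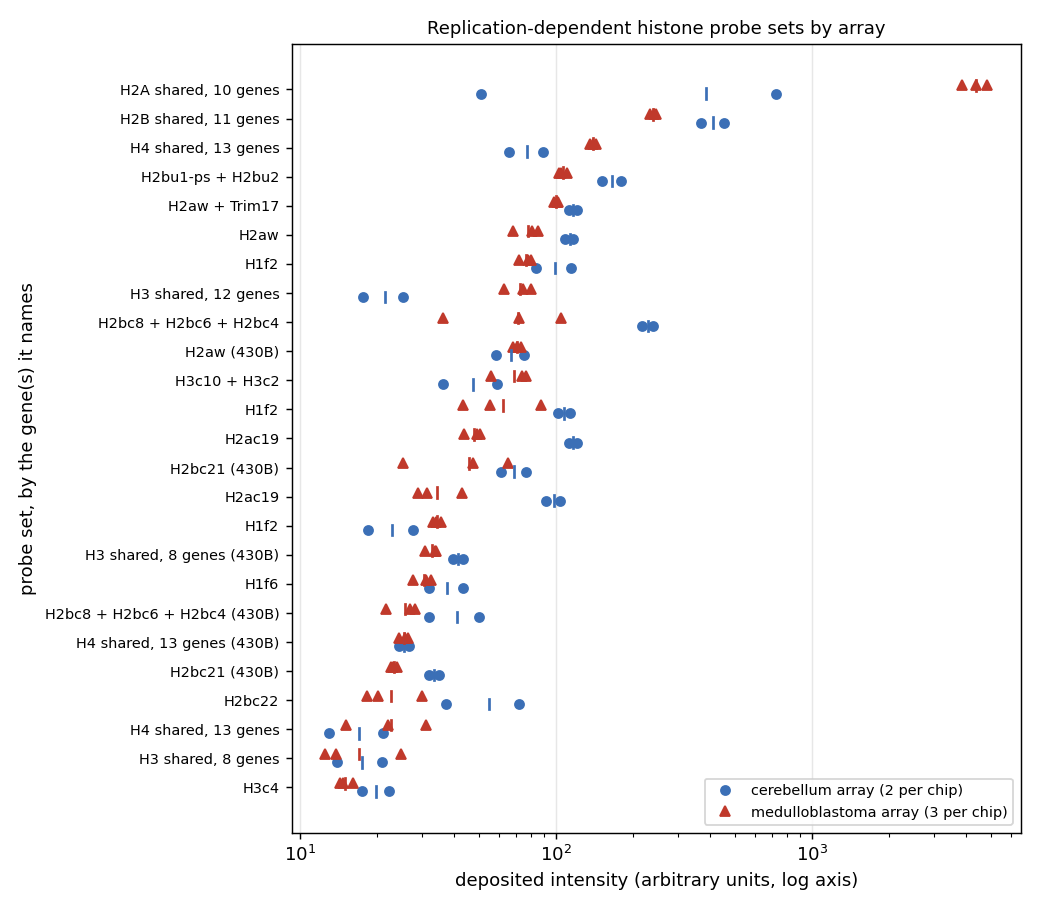
Deposited intensity (arbitrary units, log axis) of each tested replication-dependent histone probe set in every array, blue circles for the 2 cerebellum samples and red triangles for the 3 tumours, short bars for the group means. The set for 10 H2A genes has its cerebellum samples far apart, at 723 and 51.2, and its tumours between 3853 and 4859, while the H2B and H2ac19 sets that passed have all tumours left of both cerebellum samples.

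Genes that handle histones, and a list of replication and mitosis genes beside them, made up 4 lists with 78 genes in all. They were chosen like the members with earlier results of these data known. Of 71 tested, 35 were higher and 3 lower, with a median log2 fold change of 0.63, replication and mitosis genes included. Over all genes tested, 10.7% were higher and 16% lower. Replication and mitosis genes had the highest median of the 4 lists, 3.11, with 10 of 11 higher and none lower. Top2a, the topoisomerase that untangles copied DNA, rose by 4.19 ± 0.43, the mitotic kinase gene Cdk1 by 4.06 ± 0.32, the replicative helicase gene Mcm6 by 4.03 ± 0.32 and Mki67, a marker of dividing cells, by 4.0 ± 0.33. The exception was Tyms, the thymidylate synthase gene, at -0.09 ± 0.16, though another tested set of it gave 0.43.

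Of 17 tested genes that transcribe histone genes or process their transcripts, 5 were higher and none was lower, with a median of 0.35. Among all genes tested, 10.7% were higher and 16% lower. Slbp, whose protein binds the stem-loop of replication-dependent histone transcripts, read 115 and 95.2 in cerebellum and 257, 189 and 286 in the tumours. The groups do not overlap, and it rose by 1.09 ± 0.22 (adjusted p = 0.00308). Another tested set of Slbp gave 0.23. Eri1, an exonuclease that trims the stem-loop end, rose by 1.00 ± 0.17, Casp8ap2, a protein of histone locus bodies, by 0.82 ± 0.22, and Ncbp1 of the cap-binding complex by 0.79 ± 0.19. Without cerebellum 2 the calls of Slbp (adjusted p = 0.0532) and Casp8ap2 (0.52, adjusted p = 0.253) ended, and that of Ncbp1 ended without either cerebellum sample (adjusted p = 0.0535 and 0.0902). Lsm1, of the complex that decays these transcripts, was the fifth, at 0.63 ± 0.22 with an adjusted p of 0.0481, and was named after its value was seen. Its call ended without either cerebellum sample (adjusted p = 0.163 and 0.25), and its other set gave -0.10. Npat, the coactivator of replication-dependent histone genes, read 82.6 and 77.8 in cerebellum and 155, 143 and 82.7 in the tumours, with tumour 3 level with cerebellum, and did not pass at 0.53 ± 0.25 (adjusted p = 0.196).

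Of 29 tested genes for histone chaperones and assembly factors 13 were higher and 3 lower, with a median of 0.37. The list also counts Cenpa, which is itself a histone gene. The shares over all genes tested were 10.7% higher and 16% lower. Cenpa, the H3 form of centromeres, read 20.0 and 9.69 in cerebellum and 230, 221 and 205 in the tumours and rose by 2.95 ± 0.20. Another tested set of Cenpa gave 0.44. Mcm2, a helicase subunit that also holds H3 and H4, rose by 2.88 ± 0.19. Asf1b, Chaf1b, Nasp, Hat1 and Rbbp4, whose proteins act on new H3 and H4, were among the others that were higher. A second set of Chaf1b gave -0.14, and the call of Hat1 ended without cerebellum 2, at a change of 0.81. Of the genes that act in the exchange of H2A.Z, Anp32e, Ruvbl1 and Ruvbl2 were higher, while Vps72, Srcap and Ep400 did not pass, at 0.37, -0.18 and 0.15. Without cerebellum 2 the calls of Anp32e and Ruvbl1 ended (adjusted p = 0.0654 and 0.0672). For Hira, Ubn1, Cabin1, Daxx and Atrx, which deposit H3.3, no gene passed, with values from -0.50 for Atrx to 0.35 for Ubn1. The 3 lower genes belong to the nucleosome assembly protein family and are known from neurons. Nap1l5 read 1627 and 1647 in cerebellum and 177, 102 and 149 in the tumours, a fall of 3.41 ± 0.23 on the log2 scale. Nap1l2 fell by 2.82 ± 0.18 and Nap1l3, named after its value was seen, by 2.68 ± 0.14. Nap1l1 of the same family, named likewise, went the other way at 1.49 ± 0.20. Mature neuron markers were also lower, as given above, and whether fewer neurons account for the 3 falls was not tested.

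Of 14 tested enzymes that modify new or S phase histones 7 were higher and none lower, with a median of 0.64. Again, 10.7% of all genes tested were higher and 16% lower. Ezh2, the H3 lysine methyltransferase of Polycomb, read 64.3 and 31.8 in cerebellum and 336, 338 and 410 in the tumours and rose by 2.60 ± 0.24. Aurkb, the mitotic kinase that phosphorylates H3, rose by 1.62 ± 0.16, and the methyltransferase genes Suv39h2 and Nsd2 by 1.37 ± 0.21 and 1.19 ± 0.26. Kmt5a, Ehmt1 and Ehmt2 were the other 3 that were higher. The calls of Nsd2 (adjusted p = 0.0746 and 0.168), Kmt5a (0.0789 and 0.144) and Ehmt1 (0.286 and 0.122) ended without cerebellum 1 and without cerebellum 2, and that of Ehmt2 without cerebellum 1 (0.19). Other sets of Nsd2 ranged from -0.24 to 2.24 and those of Kmt5a from -0.37 to 1.60. The acetyltransferase genes Kat2a, Kat5 and Kat7 did not pass, with values from -0.29 to 0.28.

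**Figure D4:**
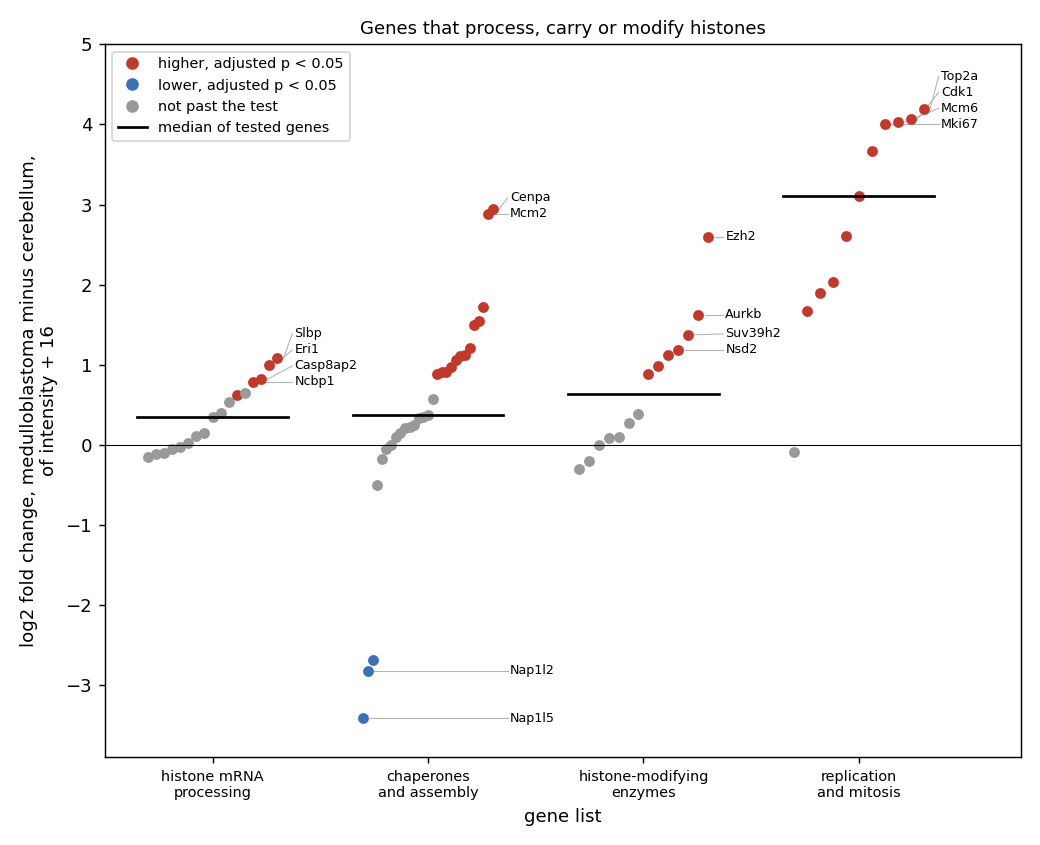
Log2 fold change (medulloblastoma minus cerebellum, of intensity + 16) of each tested gene in 4 lists, sorted within a list, red where higher and blue where lower at an adjusted p below 0.05, black bars for the medians. Up to 4 genes per list with the largest changes are named, and the replication and mitosis genes lie highest, with a median of 3.11, while Nap1l5 and Nap1l2 lie lowest.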

How the data were processed

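RNA of 3 medulloblastomas and 2 cerebellum samples was measured on 2 chips, 10 arrays in all. Per the labels' protocols, RNA was taken up in Trizol and labelled as biotinylated cRNA by the standard Affymetrix steps. The authors deposited 1 linear intensity per probe set and array, with the software, scaling and background treatment not given in the sources used here. Precision is limited by the number of arrays, and detection calls were not used.

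Titles of the samples gave the groups and replicate numbers. Intensities were taken as log2(value + 16), so a fold change understates that of dim probe sets, with no further normalization. The lowest 25% of probe sets by mean were left out, which left 16969 and 16883. The chips were fitted separately in limma 3.58.1 and R 4.3.3 (lmFit, eBayes with an intensity trend, two-sided), with Benjamini-Hochberg adjustment over its tested probe sets and calls at an adjusted p below 0.05. The p-values measure the spread between samples, whose mice the labels do not match. Pairs used an exact permutation test.

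Gene names came from the platform annotation by Entrez identifier (20380 of 22626 and 14661 of 22511 probe sets name 1 gene), updated with the RefSeq table of GRCm38.p6. A gene was read by 1 probe set of its own, a tested set before an untested one, 430A before 430B, any suffix before _s_at or _x_at, and last the brightest. The preference for tested sets was chosen after the data were seen. The text names every variant gene with a set of its own, per replication-dependent class up to 4 genes that passed or the 2 with the smallest p, members whose sets differ in sign, and up to 4 passing genes per list. The members, lists, tests and this rule were chosen with earlier results of these data known. Promoter motifs were searched on both strands of the RefSeq windows, which run from 250 bases before a start to 50 after it. The planned pair of Hist1h1c and H1f0 is not analysed here.

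Alternatives were no trend, no filter or one of 50%, equal array medians, quantile normalization, pseudocounts of 1 and 64, 430B scaled on the 100 probe sets that both chips hold, other choices of probe set, a replicate block, and each array left out in turn. With 1 cerebellum array left, the spread comes from the tumours. The fit was tested on simulated data, and matplotlib 3.10.9 (Python 3.11.15) drew the figures.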

Additional observations from a re-analysis of the deposited data

How the results depend on the processing

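The 47 tested histone probe sets were refitted under each alternative that kept them, 611 fits in all. The filter on the lowest 50% left out 10 of them. Of these 542 kept direction and side of the threshold, 27 lost the call, 15 gained one, 27 were uncalled changes that turned sign, and no called set reversed. Scaling 430B on the shared probe sets shifted the median of all its probe sets by -0.15 on the log2 scale and moved its calls from 1326 higher and 1649 lower to 827 and 1902. With that scaling 0 single-gene histone sets of 430B were higher in place of 1 and 1 was lower in place of 0. Of the replication-dependent genes 1 was lower in place of 2 when sets ending in _s_at or _x_at were left out, and likewise when the lowest 50% were left out. In both cases the alternative tests fewer sets. The H2az1 and H2az2 difference reversed to 0.047 with a pseudocount of 64, and the cause was not tested.

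With 1 array left out at a time, single-gene sets of 430A numbered 6 to 7 higher and 2 to 4 lower, and those of 430B 0 to 2 higher and 0 lower. Replication-dependent genes numbered 0 higher and 1 to 3 lower, variant genes 5 to 7 higher and 0 lower, and the genes of the 4 lists 27 to 37 higher and 3 to 4 lower. The lower calls of 430A were 2 without cerebellum 1 or tumour 1, and the higher call of 430B was lost without either cerebellum sample. The pair differences ranged from 0.38 to 0.77 for H2ax and Macroh2a1, from 0.37 to 0.70 for Macroh2a1 and Macroh2a2, and from 0.30 to 0.79 for H2az1 and Macroh2a1. For H2az1 and H2az2 they ranged from -0.19 to 0.18, reversed without tumour 2, and for H3f3a and H3f3b from -0.32 to 0.67, reversed without tumour 3.

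The labels do not say whether same-numbered tumours and cerebellum samples share a mouse. The correlations of their deviations were -0.03 and 0.17 on 430A and 0.11 and 0.02 on 430B. With 2 cerebellum samples, whose deviations mirror each other, these values cannot settle whether the samples are paired. With the replicate number as a block, 3 single-gene histone sets of 430B were higher in place of 1, and of the 47 sets 38 kept their call, 2 lost it, 4 gained one and 3 uncalled ones turned sign.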
